A study of Mus musculus with 2 samples.

Results

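The transcripts described here encode the integrin subunits of epithelium, 10 of the 25810 gene symbols listed for each library. They were chosen by name as the chains that bind laminin (*Itga3*, *Itga6* and *Itgb4*), collagen (*Itga2*) or ligands carrying an arginine-glycine-aspartate (RGD) sequence (*Itgav*, *Itga8*, *Itgb5*, *Itgb6* and *Itgb8*), together with *Itgb1*, the β chain that most α chains share. All 10 were found and all 10 passed the minimum of 1 RPM, the deposited level scaled to the mapped reads of each library, in at least one library. Lineage-depleted mammary epithelial cells (MECs) were prepared from inguinal glands of wild type (WT) and *Igfbp7*-/- mice on lactation day 3, and 1 poly(A) RNA library of each genotype was sequenced. The *Igfbp7*-/- mice lack the first coding exon of *Igfbp7* in all cells. The labels give the background of both genotypes as C57BL/6, whereas the methods say that the knockout was made on CD1. The depletion targeted CD45 and Ter119, which mark leukocytes and erythroid cells, and a further antigen that is the endothelial marker CD31 in the methods and CD35 in the labels. The number of mice and their age were not given in the sources used here.

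Integrins are cell surface receptors made of 1 α and 1 β chain that tie the cytoskeleton to the extracellular matrix. In the mammary gland α3β1 and α6β1 hold epithelial cells to the laminin of the basement membrane, α6β4 anchors hemidesmosomes, and β1 integrins are needed for the milk-producing response to prolactin. The αv integrins read the RGD sequence in fibronectin, vitronectin, osteopontin and tenascin, and αvβ6 and αvβ8 also release active TGF-β from its latent complex. α6 (CD49f) and β1 (CD29) are used to sort basal from luminal mammary cells, with basal cells carrying more of both.

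The deleted gene itself stood at 152 RPM (WT) and 1.06 RPM (*Igfbp7*-/-). The libraries held 34327854 (WT) and 35016847 (*Igfbp7*-/-) mapped reads, of which 82.3% and 72.3% fell on listed genes. Luminal epithelial markers were higher in the *Igfbp7*-/- library, with 6 of 9 higher by at least 1.5 times, none lower, and a summed level of 1794 (WT) and 4205 RPM (*Igfbp7*-/-). Basal and myoepithelial markers were lower for 9 of 10 genes, with a summed level of 3834 and 1223 RPM. Endothelial markers were lower for 7 of 7 genes (1228 and 370.2 RPM summed) and leukocyte markers for 8 of 8 (183 and 58.9 RPM), and none of these 4 lists had a marker at 0 in either library. Of the milk secretion genes, 5 of 7 were lower and none higher (103308 and 38200 RPM). Pericyte and smooth muscle markers were lower for 4 of 5 genes, adipocyte markers for 3 of 3 that passed the minimum, and erythroid markers for none of 3. Among all genes tested, 21.4% were higher and 23% lower by at least 1.5 times. Of 9 keratinocyte markers 2 passed the minimum, *Sbsn* higher (2.91 and 14.4 RPM) and *Krt10* lower (1.34 and 0.69 RPM). The list summed to 5.42 (WT) and 15.6 RPM (*Igfbp7*-/-), and *Sbsn* made up most of both sums. The part of these shifts in the integrin values was not tested, and in bulk RNA fewer cells of a type and less RNA per cell cannot be told apart.

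Of the 10 integrin transcripts, 6 were at least 1.5 times higher in the *Igfbp7*-/- library, 0 were at least 1.5 times lower, and 4 lay within 1.5 times. Among all 14026 genes tested, 21.4% were higher by this margin and 23% were lower, 44.5% in all. The 6 higher transcripts were the 5 RGD-binding chains and *Itgb4*. The 4 that lay within 1.5 times were *Itgb1* and the α chains for laminin and collagen, *Itga3*, *Itga6* and *Itga2*. On the log2 scale, with *Igfbp7*-/- over WT, the median was 0.85 for the 10 members, against 0.035 for all genes tested. It was 1.12 for the 5 RGD-binding chains among the 10 and -0.21 for the other 5. *Itgb3* and *Itga5*, chains of RGD receptors that are not among the 10, were lower, with log2 ratios of -0.85 and -0.79. With 1 library of each genotype there was no replicate and no test, and the 95% intervals given below cover the counting of read pairs only.

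**Figure D1:**
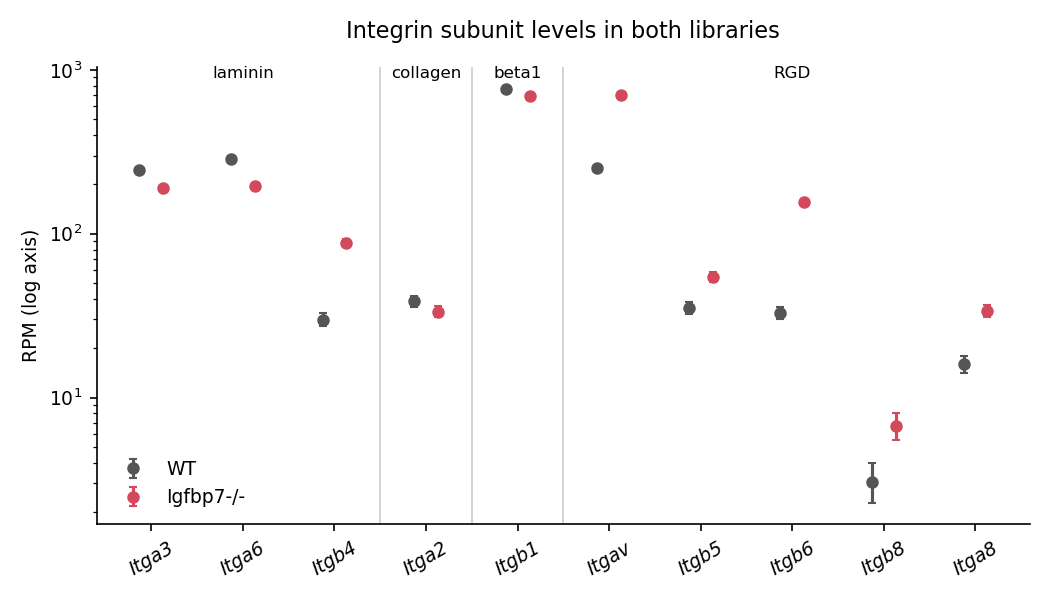
Level of each integrin transcript (RPM, log axis) in the WT and the *Igfbp7*-/- library, grouped by ligand. Points are single libraries and bars are 95% exact Poisson intervals on read pairs. *Itgav* stands at 253 and 705 RPM and *Itgb6* at 33.0 and 156 RPM, while both points of *Itgb1* lie close together at 761 and 694 RPM.

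*Itgb6*, which encodes a β chain largely restricted to epithelium and paired with αv, had the largest difference of the 10. It had 1133 reads in WT (33.0 RPM, 95% interval 30.3 to 35.8) and 5475 reads in *Igfbp7*-/- (156 RPM, 151 to 162). The *Igfbp7*-/- value was 4.73 times the WT value, a log2 ratio of 2.24 (95% interval 2.11 to 2.38), and 1.09% of the genes tested had a higher ratio.

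*Itgav*, which encodes the αv chain shared by β1, β3, β5, β6 and β8, had 8687 reads in WT (253 RPM, 246 to 261) and 24679 reads in *Igfbp7*-/- (705 RPM, 692 to 717). It was 2.78 times higher in *Igfbp7*-/-, with a log2 ratio of 1.48 (1.43 to 1.53). Only *Itgb1* had a narrower interval among the members. Per kilobase of the length used by the authors (RPKM), *Itgb1* led in both libraries, with 181 in WT and 166 in *Igfbp7*-/-, against 35.9 and 99.9 for *Itgav*.

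*Itgb5* and *Itgb8*, the other members whose products pair with αv as β chains of RGD receptors, were higher by smaller margins than *Itgb6*. *Itgb8*, whose product holds and activates latent TGF-β, had 104 reads in WT (3.03 RPM, 2.26 to 3.97) and 234 reads in *Igfbp7*-/- (6.68 RPM, 5.53 to 8.01). Its log2 ratio was 1.12 with the widest interval of the members, 0.66 to 1.64. *Itgb5*, a vitronectin receptor chain that also takes part in the uptake of dying cells, had 1210 reads in WT (35.2 RPM, 32.5 to 38.2) and 1908 reads in *Igfbp7*-/- (54.5 RPM, 51.1 to 58.1). Its log2 ratio of 0.63 (0.48 to 0.78) was the smallest of the 6, and the interval reached below the threshold of 1.5 times, which is 0.58 on this scale.

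*Itga8*, which encodes the partner of β1 that binds nephronectin and is best known from kidney and contractile stromal cells, had 548 reads in WT (15.96 RPM, 14.1 to 17.97) and 1181 reads in *Igfbp7*-/- (33.7 RPM, 31.0 to 36.5). The log2 ratio was 1.07 (0.87 to 1.29). Its ligand *Npnt* (nephronectin) had 9.88 RPM in WT against 5.83 RPM in the other library, a log2 ratio of -0.75 (-1.13 to -0.39).

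In RPKM the β chains other than β1 that pair with αv stood in a different order in each library. In WT *Itgb3*, which is not one of the 10, led with 47.6 RPKM, followed by *Itgb5* with 10.7, *Itgb6* with 6.74 and *Itgb8* with 0.98. In *Igfbp7*-/- *Itgb6* led with 31.9 RPKM, followed by *Itgb3* with 26.3, *Itgb5* with 16.5 and *Itgb8* with 2.16. The counting intervals of neighbours in either order did not overlap. *Itgb6* made up 10.2% of the summed RPKM of these 4 chains in WT and 41.6% in *Igfbp7*-/-, while *Itgb3* made up 72.1% and 34.2%. Against *Itgav* itself, the level of *Itgb6* was 0.19 in WT and 0.32 in *Igfbp7*-/-, and that of *Itgb5* was 0.30 and 0.17. These ratios are taken within a library, so the scaling between libraries does not enter them, but they do depend on the gene lengths used.

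**Figure D2:**
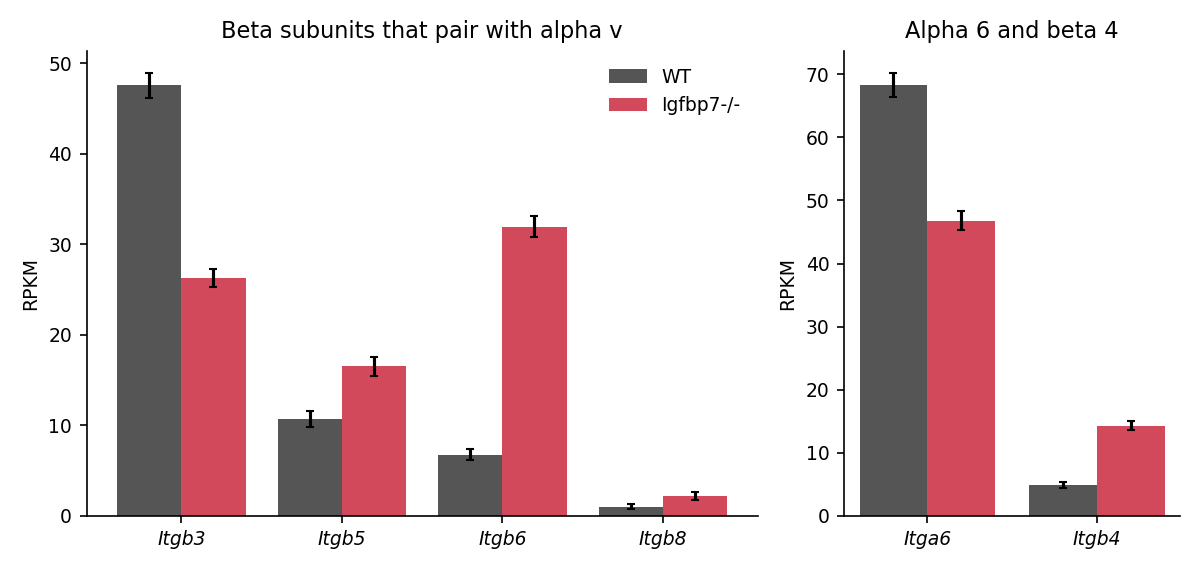
Level in RPKM of the β chains other than β1 that pair with αv (left) and of *Itga6* and *Itgb4* (right) in the WT and the *Igfbp7*-/- library. Bars are single libraries and error bars are 95% exact Poisson intervals on read pairs. *Itgb3* is the highest β bar in WT (47.6 RPKM) and *Itgb6* in *Igfbp7*-/- (31.9 RPKM).

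The promoters of 4 members are shown because *Itgb6*, *Itgav* and *Itgb8* were higher together in *Igfbp7*-/- and *Itgb1* lay within 1.5 times. Each is the stretch of 250 bases that ends just before the transcript start, from RefSeq on the build GRCm38.p6. Capitals mark matches, on either strand, to any of 5 motifs, which share no match here. The STAT motif was searched as TTCNNNGAA. The GC box, bound by Sp1 and its relatives, was searched as GGGCGG. The SMAD box, bound by the effectors of TGF-β signalling, was searched as CAGACA. The TATA box of core promoters was searched as TATAAA. The AP-1 motif was searched in its usual form with any base allowed at its centre. *Itgb6* has 2 listed starts and the first one is shown.
*Itgb6* promoter (chr2:60722604-60722853, minus strand): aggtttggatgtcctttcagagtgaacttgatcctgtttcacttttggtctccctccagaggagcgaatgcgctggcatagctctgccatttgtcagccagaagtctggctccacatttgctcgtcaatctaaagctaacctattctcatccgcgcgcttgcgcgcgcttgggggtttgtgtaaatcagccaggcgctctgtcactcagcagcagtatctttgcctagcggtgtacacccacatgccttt
*Itgav* promoter (chr2:83724147-83724396, plus strand): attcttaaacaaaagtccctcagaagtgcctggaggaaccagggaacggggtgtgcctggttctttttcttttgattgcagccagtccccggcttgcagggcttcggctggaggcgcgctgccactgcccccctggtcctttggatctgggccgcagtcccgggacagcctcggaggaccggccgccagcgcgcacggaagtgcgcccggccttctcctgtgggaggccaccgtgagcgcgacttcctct
*Itgb8* promoter (chr12:119238277-119238526, minus strand): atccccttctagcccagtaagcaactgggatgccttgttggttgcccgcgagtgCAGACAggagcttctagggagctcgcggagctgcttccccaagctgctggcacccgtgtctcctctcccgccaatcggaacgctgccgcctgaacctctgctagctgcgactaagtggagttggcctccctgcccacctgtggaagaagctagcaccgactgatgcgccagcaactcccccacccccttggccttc
*Itgb1* promoter (chr8:128685404-128685653, plus strand): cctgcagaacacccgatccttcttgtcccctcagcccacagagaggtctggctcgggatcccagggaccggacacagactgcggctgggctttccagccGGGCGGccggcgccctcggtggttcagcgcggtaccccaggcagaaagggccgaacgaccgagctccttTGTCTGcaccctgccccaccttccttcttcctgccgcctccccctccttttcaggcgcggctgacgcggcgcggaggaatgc

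No motif of the 5 matched in the windows of *Itgb6* and *Itgav*. The *Itgb8* window held 1 SMAD box 196 bases before the start, and the *Itgb1* window held 1 GC box 151 bases and 1 SMAD box 82 bases before it. Over all 32851 promoters of this length, 17.1% held the SMAD box, 32.7% the GC box, 12.4% the TATA box, 7.02% the STAT motif and 6.75% the AP-1 motif. None of the 10 windows listed for 8 of the members held the STAT, the AP-1 or the TATA motif. The GC box did not follow the calls. The window of *Itgb5*, also higher, held 3 GC boxes, and so did the first window of *Itga3*, within 1.5 times. The windows of *Itga8*, higher, and *Itga2*, within 1.5 times, held no GC box. *Itga6* and *Itgb4* had no entry. The *Itgb6* window was the least GC-rich of the 4 shown, with 52.0% G or C, against 64.4% for *Itgav*, 62.4% for *Itgb8* and 68.0% for *Itgb1*, and the median of all promoters was 52.4%.

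The laminin-binding chains did not share 1 direction. *Itgb4*, which encodes the hemidesmosome chain with a long cytoplasmic tail that binds plectin, had 1028 reads in WT (29.9 RPM, 27.4 to 32.7) and 3079 reads in *Igfbp7*-/- (87.9 RPM, 83.6 to 92.4). It was 2.93 times higher in *Igfbp7*-/-, with a log2 ratio of 1.55 (1.41 to 1.70). *Itga6*, which encodes its only α partner and also pairs with β1, had 9860 reads in WT (287 RPM, 279 to 295) and 6890 reads in *Igfbp7*-/- (197 RPM, 190 to 203). It was 1.46 times lower in *Igfbp7*-/-, a log2 ratio of -0.55 (-0.61 to -0.48) whose interval reached past the threshold.

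*Itga3*, which encodes the laminin-332 and laminin-511 receptor chain, had 8360 reads in WT (244 RPM, 236 to 251) and 6653 reads in *Igfbp7*-/- (189.99 RPM, 184 to 197), a log2 ratio of -0.36 (-0.42 to -0.29). In RPKM *Itga6* exceeded *Itgb4* by 14.1 times in WT and by 3.28 times in *Igfbp7*-/-. The level of *Itgb4* against *Itga6* was thus 4.29 times higher in *Igfbp7*-/-. *Itgb4* transcripts remained fewer than those of *Itga6* in both libraries.

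*Itgb1* had the most reads of the 10 in WT, 26119 (761 RPM, 748 to 774), and 24317 in *Igfbp7*-/- (694 RPM, 682 to 707). Its log2 ratio of -0.13 (-0.17 to -0.10) turned to 0.06 when the libraries were scaled to the reads on listed genes, so its direction is set by the scaling. *Itga2*, which encodes the collagen-binding partner of β1 (CD49b), had 1327 reads in WT (38.7 RPM, 35.7 to 41.7) and 1173 reads in *Igfbp7*-/- (33.5 RPM, 30.8 to 36.3). The log2 ratio was -0.21 (-0.37 to -0.044).

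**Figure D3:**
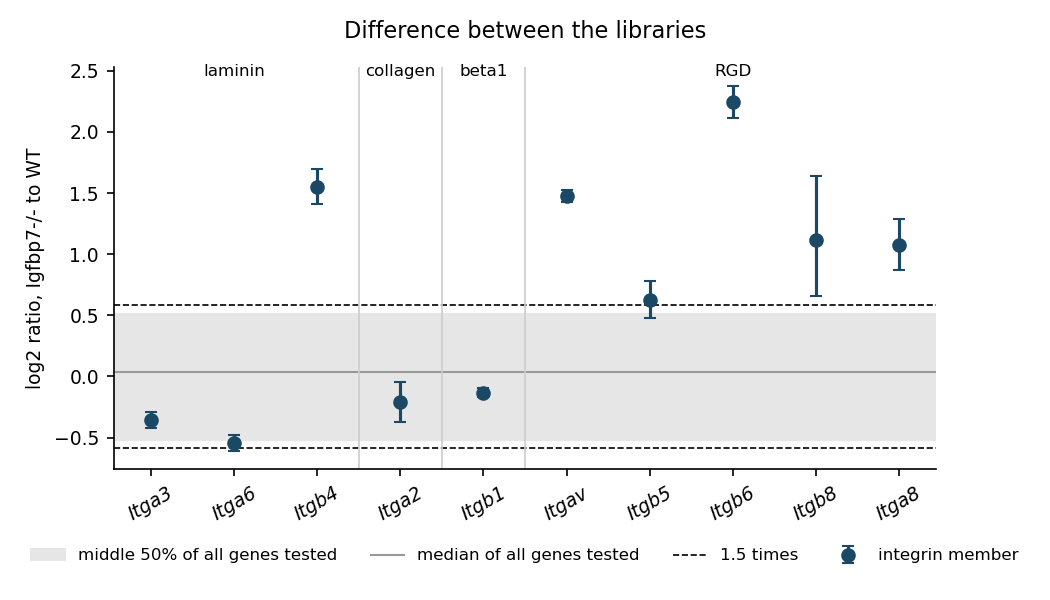
log2 ratio of *Igfbp7*-/- to WT (RPM with 0.1 RPM added) for each integrin transcript, with 95% Clopper-Pearson intervals on read pairs. The grey band holds the middle 50% of all genes tested, the grey line is their median of 0.035, and dashed lines mark 1.5 times. The 5 RGD-binding chains and *Itgb4* lie above the upper dashed line, with *Itgb6* highest at 2.24. Of the other 4, *Itga6* lies just below the band at -0.55 and the rest lie inside it.

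The order of levels over the 10 transcripts shifted with these differences. In WT the RPKM order ran *Itgb1*, *Itga6*, *Itga3*, *Itgav*, *Itgb5*, *Itga2*, *Itgb6*, *Itgb4*, *Itga8* and *Itgb8*. In *Igfbp7*-/- it ran *Itgb1*, *Itgav*, *Itga6*, *Itga3*, *Itgb6*, *Itgb5*, *Itgb4*, *Itga2*, *Itga8* and *Itgb8*. In WT the neighbours *Itgb5* (10.7 RPKM, 9.84 to 11.6) and *Itga2* (9.13 RPKM, 8.44 to 9.84) touched within counting error, and all other neighbours in both orders were separated by their counting intervals. The α chains that can pair with β1 include *Itgav*, which made up 12.3% of the summed RPKM of these 12 chains in WT and 36.6% in *Igfbp7*-/-. *Itga5* had the largest share in WT, 36.2%, and 22.4% in *Igfbp7*-/-.

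Members that were higher did not lie together in the genome. In the mouse build mm9 (NCBIM37) with the GENCODE vM1 annotation, *Itgb6* spans chr2:60436349-60560700 on the minus strand and *Itgav* chr2:83564554-83647073 on the plus strand. *Itga8* also lies on chromosome 2 (chr2:12028259-12223547, minus strand), and so does *Itga6* (chr2:71583673-71696473, plus strand), whose place is between *Itgb6* and *Itgav* although its ratio was below 1. *Itgb4* (chr11:115836023-115869726, plus strand) and *Itga3* (chr11:94905788-94938115, minus strand) share chromosome 11. The files give 1 count for each gene, so the splice forms of the α3, α6 and β4 tails could not be separated.

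The 17 integrin subunits outside the 10 showed the other balance. Of the 15 that passed the minimum, 10 were lower in *Igfbp7*-/-, 3 were higher and 2 lay within 1.5 times, with a median log2 ratio of -0.85. The shares were thus 66.7% lower and 20% higher, against 23% and 21.4% of all genes tested. *Itgb3*, the αv partner known from luminal progenitors and platelets, stood at 276 RPM in WT against 152 RPM in *Igfbp7*-/- (log2 ratio -0.85, -0.92 to -0.79). *Itga5*, the fibronectin receptor chain, stood at 463 and 269 RPM (-0.79, -0.84 to -0.73), and *Itga1*, a collagen and laminin receptor chain, at 43.0 and 18.9 RPM, a log2 ratio of -1.18.

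*Itgax*, the dendritic cell marker CD11c, stood at 16.9 (WT) and 3.54 RPM (*Igfbp7*-/-), the lowest ratio of the family. *Itga4*, the lymphocyte chain of the VCAM-1 receptor, stood at 13.6 and 4.26 RPM, and *Itga9*, a tenascin and osteopontin receptor chain, at 36.3 and 12.6 RPM. *Itga11*, a collagen receptor chain of fibroblasts, was higher, with 15.7 RPM in WT and 29.4 RPM in *Igfbp7*-/- (0.90, 0.69 to 1.13). The chains of blood cells in this group did not share 1 direction. Besides *Itgax* and *Itga4*, the leukocyte chains *Itgal*, *Itgae* and *Itgb2* were lower, with log2 ratios of -1.35, -1.61 and -0.61. *Itgb7*, a lymphocyte chain, was higher (3.35 and 6.77 RPM), and *Itgam*, the myeloid marker CD11b, lay within 1.5 times (4.78 and 6.28 RPM), while all 8 leukocyte markers given above were lower. The part of other cell types in these values was not tested.

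**Figure D4:**
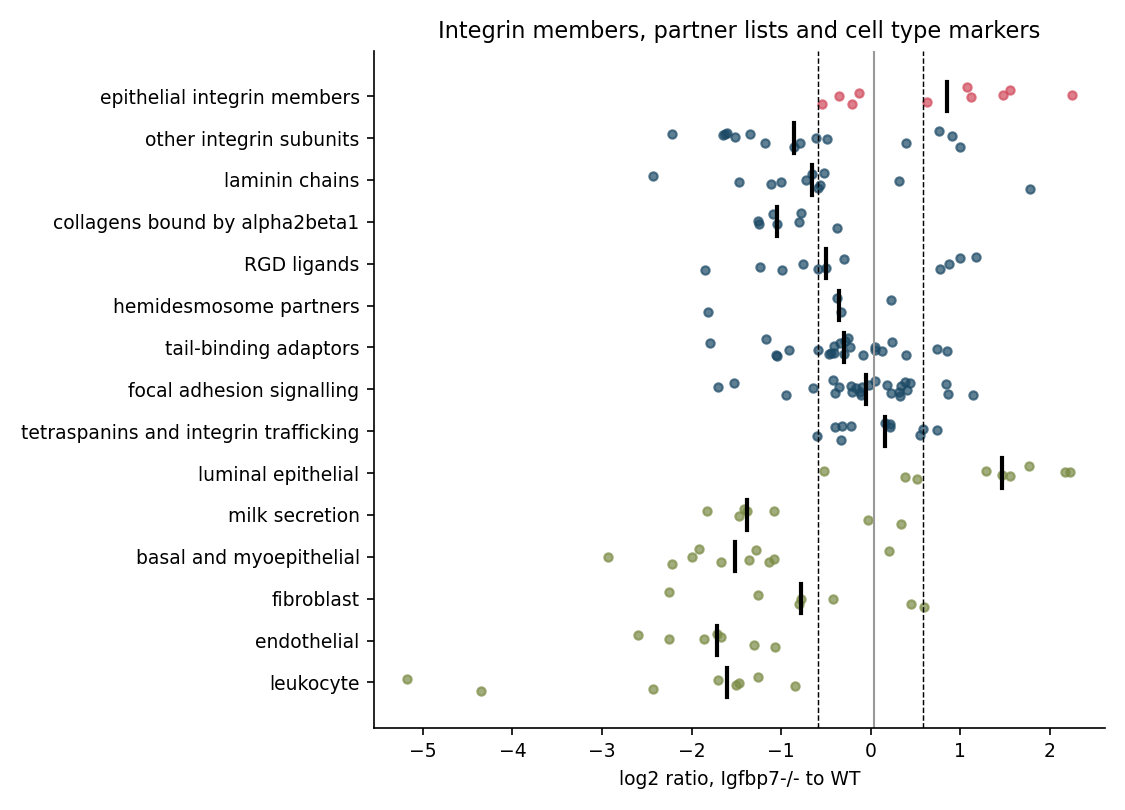
log2 ratio of *Igfbp7*-/- to WT for the integrin members (red), the lists of integrin partners (blue) and the cell type markers (green). Each point is a gene with at least 1 RPM in one library, spread vertically for visibility, black bars are list medians, the grey line is the median of all genes tested and dashed lines mark 1.5 times. The members have a median of 0.85, while the other integrins have -0.85, the laminin chains -0.66 and the luminal markers 1.47.

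Among the laminin chains, the ligands of α3β1, α6β1 and α6β4, 7 of 11 were lower in *Igfbp7*-/- and 1 was higher. The shares of all genes tested were 23% lower and 21.4% higher. *Lama3*, which encodes the α chain of laminin-332, the hemidesmosome ligand, stood at 405 and 75.3 RPM, with a log2 ratio of -2.43. *Lamb3*, the β chain of the same laminin, stood at 195 and 97.4 RPM, and *Lama1* at 25.1 and 11.6 RPM. *Lama5*, the α chain of laminin-511, was the one that was higher, with 135 RPM in WT and 462 RPM in *Igfbp7*-/- (1.78, 1.71 to 1.84).

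Of the hemidesmosome partners of *Itgb4*, *Col17a1*, a transmembrane collagen that binds it, stood at 322 RPM in WT against 91.1 RPM in *Igfbp7*-/- (log2 ratio -1.82, -1.90 to -1.74). The other 3 lay within 1.5 times: the plectin gene *Plec* at 299 and 349.8 RPM, *Dst* at 677 and 519.6 RPM and the tetraspanin gene *Cd151* at 65.2 and 51.6 RPM. *Itgb4* therefore differed in the other direction from *Col17a1* and *Lama3*.

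*Itga2* and *Itgb1* lay within 1.5 times. The collagens that α2β1 binds were lower for 6 of 7 genes, against 23% of all genes tested. The median log2 ratio of these collagens was -1.04. The largest differences were in *Col3a1* (4670 and 1950.5 RPM), *Col4a2* (1511 and 637 RPM) and *Col4a1* (2161 and 1016 RPM). Fibroblast markers, which share 3 genes with this list, were lower for 4 of 7 genes and higher for 1. All 3 shared collagens were among the lower ones. Of the remaining markers *Lum* was lower (402 and 84.1 RPM), *Fbln1* was higher (24.3 and 36.8 RPM), and *Pdgfra* and *Dcn* lay within 1.5 times.

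The list of RGD ligands, which also held the genes of the latent TGF-β complex given below, was mixed, with 4 of 11 higher and 5 lower. Over all genes tested the shares were 21.4% and 23%. *Mfge8*, the milk fat globule protein that links dying cells to αvβ3 and αvβ5, stood at 832 RPM in WT against 1872 RPM in *Igfbp7*-/- (log2 ratio 1.17, 1.14 to 1.20). *Tnc* (tenascin C) stood at 73.6 and 135 RPM. *Fbln5* stood at 68.3 and 34.2 RPM, and *Fn1* (fibronectin) and *Spp1* (osteopontin) lay within 1.5 times at 970.5 and 791 RPM and at 3437 and 2438 RPM.

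The genes of the latent TGF-β complex on which αvβ6 and αvβ8 act, already counted in that list, differed in both directions. *Tgfb1* stood at 31.2 RPM in WT and 13.2 RPM in *Igfbp7*-/- (-1.23, -1.47 to -1.02), and *Tgfb3* at 21.6 and 37.1 RPM, a log2 ratio of 0.77. *Ltbp1*, which ties the latent complex to the matrix, stood at 47.5 and 94.6 RPM (0.99, 0.87 to 1.12). *Lrrc32*, which holds the complex at the cell surface, stood at 131 and 87.1 RPM.

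On the inner side of the membrane most genes lay within 1.5 times, as did most of all genes tested. Among the latter 44.5% lay outside it, 21.4% higher and 23% lower. Of 23 adaptors that bind integrin tails or the complex on them, 16 lay within this margin, 2 were higher and 5 were lower. Talin 1 (*Tln1*, 257 and 209 RPM), kindlin-2 (*Fermt2*, 293 and 245 RPM) and integrin-linked kinase (*Ilk*, 45.2 and 49.3 RPM) were among the former. *Tns3* (132 and 238 RPM) was among the higher ones, and among the lower ones were *Parvb* (58.0 and 16.7 RPM), *Tns1* (685 and 305 RPM) and *Tns4* (80.1 and 38.3 RPM).

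Of 26 focal adhesion signalling genes, 19 lay within 1.5 times, 3 were higher and 4 were lower. Focal adhesion kinase (*Ptk2*) stood at 63.7 RPM in WT and 71.97 RPM in *Igfbp7*-/-. *Nedd9* (95.7 and 211 RPM), *Ptk2b* (26.7 and 48.7 RPM) and *Src* (63.6 and 114 RPM) were higher, and *Cav1*, the caveolin gene abundant in endothelium and adipocytes, stood at 985 and 303 RPM. *Elmo1* (33.0 and 11.4 RPM) and *Fyn* (127 and 66.3 RPM) were lower too. Among 11 tetraspanin and integrin trafficking genes, 9 lay within 1.5 times, with *Numb* higher (18.2 and 30.4 RPM) and *Rab21* lower (46.9 and 30.96 RPM).

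Set against luminal genes of the same library, the answer depended on the gene used. In RPKM *Itgb6* was 0.0377 of *Krt18*, a luminal keratin, in WT and 0.0381 in *Igfbp7*-/-, and the ratios of *Itgav*, *Itgb5*, *Itgb8*, *Itga8* and *Itgb4* to *Krt18* were lower in *Igfbp7*-/-, by 1.60 to 3.03 times. Against *Krt8*, its keratin partner, *Itgb6* was 0.0454 in WT and 0.0731 in *Igfbp7*-/-, *Itgb4* was 0.0327 in both libraries, and *Itgav* was 0.24 and 0.23. The ratios of *Itgb5*, *Itga8* and *Itgb8* to *Krt8* were lower in *Igfbp7*-/-, by 1.90, 1.39 and 1.33 times. Against *Epcam*, a further luminal gene that itself lay within 1.5 times (338 and 482 RPM), all 6 ratios were higher in *Igfbp7*-/-. They ran from 1.085 times for *Itgb5* to 3.325 times for *Itgb6*. This direction was fixed in advance, since the 6 were called at 1.5 times or more and *Epcam* was 1.42 times higher. The ratios of the other 4 members to *Epcam* were lower in *Igfbp7*-/-, from 1.56 times for *Itgb1* to 2.08 times for *Itga6*. The denominators *Krt8* and *Epcam*, and *Krt18* for the RGD-binding chains, were chosen after the data had been seen.

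Against *Krt14*, a basal keratin at 326 (WT) and 148 RPM (*Igfbp7*-/-), the basal-type integrins were higher in the *Igfbp7*-/- library. *Itga6* was 0.35 of *Krt14* in WT and 0.53 in *Igfbp7*-/-, *Itgb1* was 0.94 and 1.87, and *Itgb4* was 0.025 and 0.16. Against *Krt18*, *Itga6* was 0.38 and 0.056 and *Itgb1* was 1.01 and 0.20. The shares of basal and luminal cells in the libraries were not measured.

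The 6 calls held under each of the 5 other scalings of the libraries in the plot of scalings. Scaling to the reads on listed genes moved the median log2 ratio of all genes tested to 0.22. Under this scaling 62.2% of all calls were in the higher direction, against 48.2% with the deposited RPM. The threshold of 2 left 5 members higher and took *Itgb5* out, and 9.64% of all genes tested were higher by that margin.

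**Figure D5:**
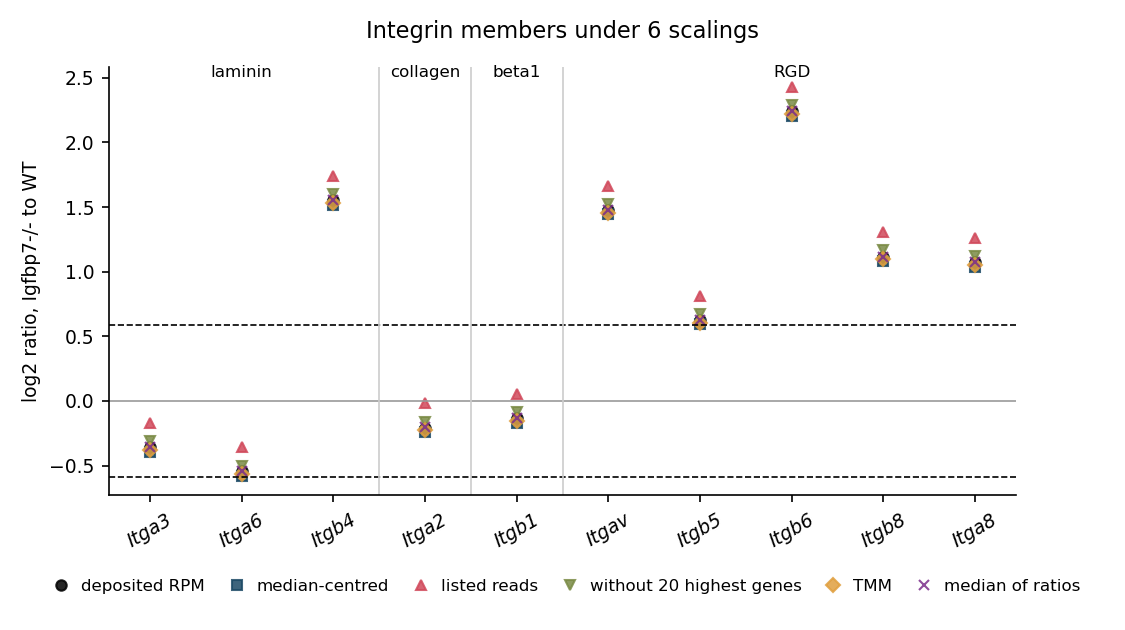
log2 ratio of *Igfbp7*-/- to WT for each integrin transcript under 6 scalings of the libraries, with dashed lines at 1.5 times. *Itgb5* runs from 0.59 with median-centred ratios to 0.81 with scaling to listed reads, and *Itgb1* is the one member that crosses 0.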

How the data were processed

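RNA of lineage-depleted MECs was sequenced by the authors on a SOLiD sequencer in paired-end mode, with 1 library for each genotype. The labels name Bowtie 0.12.3, SAMtools 0.1.15 and mm9, while the methods name a GeneSifter pipeline and a human build, and the listed genes are mouse genes. The methods also say that mitochondrial, ribosomal and small nuclear RNA was filtered out, although 4 ribosomal RNA rows remain in the files. The gene annotation and the treatment of reads that map to several places were not given in the sources used here. The authors deposited for each gene a raw read count, without normalization. For the deposited RPM the authors divided each count by all reads mapped in that library, those outside the listed genes included. The deposited RPKM is the RPM per kilobase of a gene length chosen by the authors. Rows without a symbol (50 in each file, at most 0.048% of the mapped reads) were left out.

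Ratios were taken on log2(RPM + 0.1) where either library reached 1 RPM, and understate the differences of low genes. Low counts were mostly even (75.8% and 74.1% of counts from 1 to 20), so each count was divided by 2, rounded down, for exact Poisson intervals of levels and Clopper-Pearson intervals of ratios, both at 95%. They leave out the added 0.1 RPM and cover counting error only. At this depth 3 reads equal 0.0874 RPM in WT and 0.0857 RPM in *Igfbp7*-/-. With 1 library of each genotype no test and no leave-one-out were made. The members, lists and rules were chosen with earlier results of these data known. All 10 members were named, and from each other list up to 3 genes in each direction past 1.5 times with at least 10 RPM, every other integrin with at least 10 RPM, and *Igfbp7*. Further genes of the lists were named after their values were seen. Some genes that this rule names are not reported here. Alternatives were pseudocounts, RPKM, minimums, a threshold of 2 and other scalings, with edgeR 4.0.16 (TMM) and DESeq2 1.42.0 (size factors) used for scaling only. Python 3.11.15, numpy 2.4.6, scipy 1.17.1 and pandas 2.3.3 were used, and the scripts were tested on simulated data.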

Additional observations from a re-analysis of the deposited data

How the results depend on the processing

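The 6 higher calls among the integrin members held under 11 of the 13 alternatives to the deposited RPM, and 0 members were lower by 1.5 times under any of the 13. The threshold of 2 left 5 higher, without *Itgb5*, and the minimum of 10 RPM left 5, without *Itgb8*, which was not tested there. The log2 ratio of *Itgb6* ranged from 2.21 to 2.44 over these alternatives, that of *Itgav* from 1.44 to 1.68 and that of *Itgb8* from 0.93 to 1.32. *Itgb1* ranged from -0.17 to 0.068, with values above 0 where the libraries were scaled to the reads on listed genes, with or without ribosomal RNA, the latter added after the data had been seen. Of all integrin partner genes tested, 14 were higher and 39 lower by 1.5 times. Those tested were 15 other integrin subunits, 11 laminin chains, 7 collagens, 11 RGD ligands and 4 hemidesmosome partners. The rest were 23 adaptors, 26 focal adhesion signalling genes and 11 tetraspanin and trafficking genes. Among all genes tested, 21.4% were higher and 23% lower. With the threshold of 2, 3 partner genes were higher and 24 lower, where the shares of all genes tested were 9.64% and 13.8%. Intervals on single reads in place of pairs were narrower for every member. No paired analysis was possible because each genotype had 1 library. Level ratios within a library hold no pseudocount and no scaling, so these alternatives do not apply to them. Depth limited *Itgb8* most, with 104 and 234 reads.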
